A study of Mus musculus with 9 samples.

Results

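Replication-dependent histone genes encode the histones H1, H2A, H2B, H3 and H4 that package newly copied DNA, and they lie in clusters of short genes. The set described here comprises the 69 gene names, of 35024 in the deposited table, that begin with Hist1h, Hist2h, Hist3h or Hist4 and are not marked as pseudogenes by the suffix -ps. The table came from bulk RNA sequencing of hepatic stellate cells, pericytes of the liver that store vitamin A. The study asked how loss of Yap1, a transcriptional coactivator of the Hippo pathway, changes these cells after repeated liver injury.

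All mice were of the YAP floxed strain on a C57BL/6J background and received 6 injections of carbon tetrachloride (CCl4), a liver toxin, 3 days apart. The control label is on 5 libraries, LYT017, LYT015, LYT014, LYT005 and LYT004, which came from YAP f/f mice without Cre. The YAP-deleted label is on 4 libraries, LYT016, LYT013, LYT008 and LYT006, which came from LratCre pos YAP f/f mice, in which the promoter of Lrat, a gene of retinoid storage active in stellate cells, drives Cre. The control mice lacked LratCre, so an effect of Cre itself cannot be told apart from loss of Yap1. At 2 days past the final injection cells were isolated, sorted by flow cytometry on the autofluorescence of stored retinoids and lysed at once. Age and sex were not given in the sources used here. Neither did the labels state that the libraries were from separate mice, so p-values speak only for the spread among libraries, and some of that spread may be technical.

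In most cells these genes are transcribed during S phase, when DNA is replicated. Their mRNAs usually end in a conserved stem-loop in place of a poly(A) tail. The stem-loop is bound by SLBP and the transcript is cut a few bases downstream by a complex that contains the U7 small nuclear RNA. Some of these genes, Hist1h1c, Hist1h2bc and Hist2h2be among those discussed, are also known to give longer polyadenylated transcripts, which can be made outside S phase. The extraction protocol names 2 ways of preparing a library, poly-A selection (which captures tailed transcripts) and ribosomal RNA depletion (which does not depend on a tail), and does not say which library received which. The method of preparation was therefore not used as a factor, and no library was assigned to one from its values.

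The stem-loop is the hallmark of these mRNAs, and the sites of members discussed in the text are printed for that reason. All 69 members matched a gene of GENCODE release M21 on GRCm38. That release annotates 2 of them, Hist1h2aj and Hist1h2al, as pseudogenes, and both are kept in the counts of members below. A stem-loop was searched for in the longest coding transcript of each gene, or the only transcript of these 2 pseudogenes. It was defined as 6 bases that begin with GG, a loop of 4 bases that begins with TT, and the reverse complement of the first 6 bases. The capitals mark this stem-loop, with 5 flanking bases on each side.
Hist1h1c: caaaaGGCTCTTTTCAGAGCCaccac
Hist3h2a: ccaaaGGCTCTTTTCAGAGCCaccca
Hist2h2aa2: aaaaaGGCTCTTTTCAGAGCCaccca
Hist2h3c1: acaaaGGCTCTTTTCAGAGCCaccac
Hist1h1t: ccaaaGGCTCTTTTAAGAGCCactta
Hist2h2ac: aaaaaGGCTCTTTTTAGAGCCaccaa
Hist1h4h: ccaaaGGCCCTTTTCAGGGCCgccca
Hist1h4i: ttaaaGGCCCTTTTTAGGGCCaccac

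Of the 69 members, 43 held such a stem-loop and 26 did not, whereas 185 of 55341 annotated genes (0.334%) held one in any transcript. The most frequent form, shown for Hist1h1c, was found in 25 members, none of them an H4 gene. The form shown for Hist1h4h was found in 7 members and the form shown for Hist1h4i in 2, all of them H4 genes. The form shown for Hist1h1t occurred in 6 members and that of Hist2h2ac in 1. The position of the site within the annotated transcript varied widely. It lay under 100 bases before the annotated end in 21 members and 100 or more bases before it in 22. Hist1h1c (chromosome 13, 23738808 to 23740367, plus strand, 1 exon) is annotated for 840 bases past its stem-loop, Hist3h2a (chromosome 11, 58954685 to 58956830, plus strand) for 1643 bases and Hist2h3c1 (chromosome 3, 96246685 to 96248509, plus strand) for 1167 bases. Hist1h2bc (chromosome 13, 23684199 to 23692908, plus strand) is annotated with 2 exons and Hist2h2be (chromosome 3, 96221119 to 96223738, plus strand) with 1, and the search found no stem-loop in either transcript. Hist2h2aa2 (chromosome 3, 96239749 to 96240276, minus strand) ends 35 bases after its stem-loop. That the search found none says only that these letters are not in the annotated transcript.

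Levels are given as normalised counts, the counts recovered from the deposited values and divided by a size factor for each library. Total counts were lowest in LYT017 at 14052502 and highest in LYT013 at 31816055, with 16282 to 17341 genes above 0. Stellate cell markers were high in every library, with Lrat at 35209 to 69555 and Dcn at 219271 to 339089 normalised counts. Col1a1 and Col3a1, collagen genes of activated stellate cells, ran over 7.89 and 3.43 times and were highest in LYT004, LYT005 and LYT008. LYT013 stood apart from the rest: over all genes its chi-square per degree of freedom against any other library was 158 to 278, against 13.8 to 123 for pairs without it. This statistic rises with the number of counts, and LYT013 had the most counts. The summed levels of 8 endothelial markers ran from 1120 to 4129 in the control and from 1874 to 4059 in the YAP-deleted group, highest in LYT014 and LYT013. Of 9 lymphocyte markers 8 were above 0 in some library, and the summed levels of the 9 ran from 23.3 to 63.1 in the control group and from 19.6 to 67.6 in the YAP-deleted group, and those of 13 macrophage and Kupffer cell markers from 727 to 1952 and from 1065 to 2631. Their part in the levels of the histone genes was not tested.

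Yap1 itself stood at 2902 normalised counts in LYT004, 2915 in LYT005, 3653 in LYT015, 3551 in LYT017 and 618 in LYT014 of the control group. In the YAP-deleted group it stood at 642 in LYT006, 648 in LYT008, 645 in LYT016 and 2530 in LYT013. The library labelled control LYT014 was thus as low as the deleted ones, and the library labelled YAP-deleted LYT013 nearly as high as the controls. The tests of single genes between the groups were therefore made on the 9 libraries as labelled and again on the 7 libraries without LYT013 and LYT014. The Yap1 difference (YAP-deleted minus control, on the log2-like scale of the deposited values) was -1.30 ± 0.54 (SE) over 9 libraries, with an exact two-sided permutation p of 0.0794. Over 7 libraries it was -2.22 ± 0.10 (SE), a description with no test, since these libraries were chosen by their Yap1 level.

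Histone transcripts made up a very small part of each library. The 69 members together took 0.0104% of the counts in LYT017 (95% Wilson interval 0.0099% to 0.0110%) and 0.0236% in LYT008 (0.0229% to 0.0245%), with the other libraries between them. These intervals cover counting error only. Of the 69 members, 18 were above 0 in all 9 libraries, 24 in 4 to 8, 18 in 1 to 3 and 9 in no library. The 9 were Hist1h2aa, Hist1h2aj, Hist1h2ap, Hist1h2ba, Hist1h2bl, Hist1h2bm, Hist1h2bp, Hist2h2ab and Hist3h2ba. A count of 0 allows up to 1.80 normalised counts in LYT013, the most deeply sequenced library, and up to 4.03 in LYT017, from 3 counts. These limits do not hold where reads cannot be told apart from those of a copy. Hist1h2ap, for example, shares 93.4% of its 31-base words with Hist1h2ao. Hist1h2aa and Hist1h2ba are genes known from the male germ line, as is Hist1h1t, which had 2 counts in all 9 libraries together. Hist1h1a, a linker histone with a restricted pattern, was above 0 in 6 libraries at up to 4.26 normalised counts.

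The members' counts were concentrated in a few genes. Hist1h2bc and Hist1h1c, an H2B and an H1 gene, held 63.8% of the members' normalised counts, the 8 members with the highest mean held 92.8%, and the other 61 held 7.15%. Only 5 members averaged over 100 normalised counts, 8 averaged 10 to 100, and 56 averaged under 10. A single gene led each class: Hist1h1c held 97.2% of the counts of the 6 H1 genes and Hist1h2bc 86.2% of the counts of the 18 H2B genes. Hist2h3c1 held 70.6% of the counts of the 12 H3 genes and Hist1h4i 44.5% of those of the 13 H4 genes. Hist3h2a held 55.6% of those of the 20 H2A members, 2 of which are annotated as pseudogenes. The 10 Hist2 genes and the 2 Hist3 genes took 477 and 329 normalised counts on average, against 1963 for the 56 Hist1 genes.

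**Figure D1:**
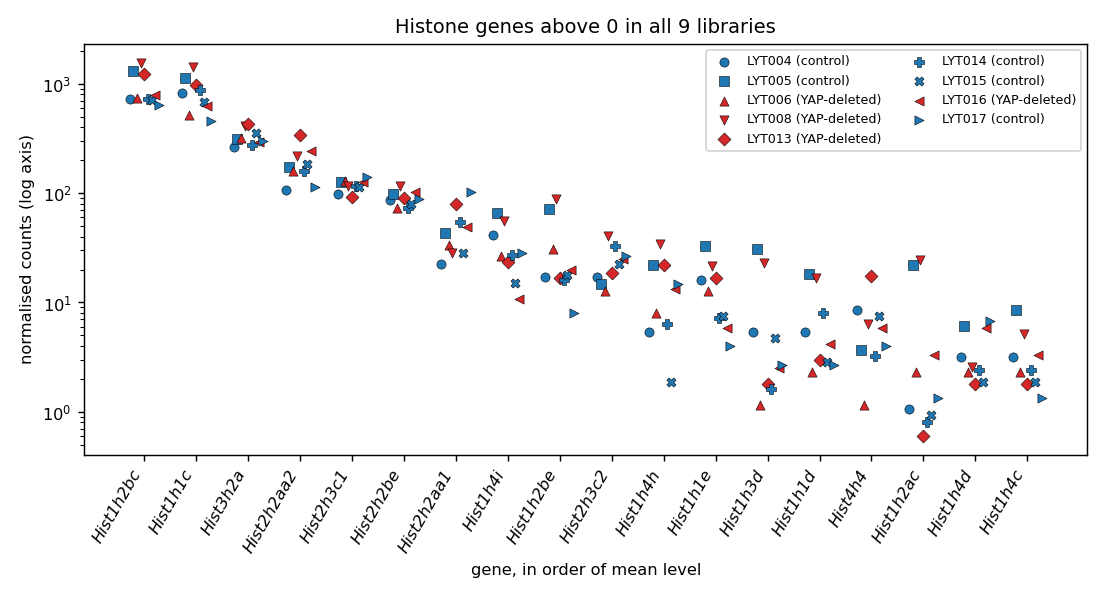
Normalised counts (log axis) of the 18 histone genes above 0 in all 9 libraries, in order of mean level. Each point is 1 library, blue for those labelled control and red for those labelled YAP-deleted. Hist1h2bc and Hist1h1c lie highest, and LYT005 and LYT008 stand above most other libraries for Hist1h2be, Hist1h3d, Hist1h1d and Hist1h2ac.

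Hist1h2bc stood at 721, 1306, 718, 704 and 638 normalised counts in the control libraries LYT004, LYT005, LYT014, LYT015 and LYT017, and at 742, 1560, 1238 and 787 in LYT006, LYT008, LYT013 and LYT016. Control LYT005 and the libraries labelled YAP-deleted LYT008 and LYT013 were high and the other 6 lay close together. Hist1h1c, which encodes the linker histone that binds between nucleosomes, stood at 824, 1127, 873, 678 and 453 in the control libraries and at 519, 1436, 977 and 624 in the YAP-deleted ones, in the same order. LYT008, LYT005 and LYT013 were again highest. The groups overlapped for both genes.

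Hist3h2a, an H2A gene outside the main clusters, varied less. It stood at 265, 310, 273, 358 and 301 normalised counts in LYT004, LYT005, LYT014, LYT015 and LYT017, and at 322, 411, 428 and 293 in LYT006, LYT008, LYT013 and LYT016, so the highest library was 1.61 times the lowest. Hist2h3c1, an H3 gene, ran from 92.7 (LYT013) to 140 (LYT017), 1.51 times, and Hist2h2be, an H2B gene, from 73.0 (LYT014) to 116 (LYT008), 1.59 times. LYT008 was the highest library for Hist2h2be and second for Hist3h2a, while for Hist2h3c1 LYT005 and LYT008 lay within the range of the others. Hist2h3c1 has no 31-base word of its own in the annotation and shares 35.4% with Hist2h3c2, the most with any member, so the split between these copies is uncertain. Summed with Hist2h3c2 and Hist2h3b, it stood at 145 ± 16.2 (SD, n = 5) in the control and 144 ± 20.5 (SD, n = 4) in the YAP-deleted group. Every word of Hist2h3c1 also occurs in another annotated gene, so this sum may not settle its level.

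Hist2h2aa1 and Hist2h2aa2 are near-identical H2A genes on chromosome 3. Every 31-base word of Hist2h2aa2 also occurs in Hist2h2aa1, so reads from the pair cannot be told apart and only their sum is interpretable. The sum stood at 130, 216, 214, 211 and 218 normalised counts in LYT004, LYT005, LYT014, LYT015 and LYT017, and at 191, 247, 421 and 292 in LYT006, LYT008, LYT013 and LYT016. It was highest in the library labelled YAP-deleted LYT013, and the groups overlapped. Sharing of this kind was common: 42 members had under 50% of their 31-base words to themselves and 6 had none, and the values of those members are uncertain.

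Among the remaining members, the spread over libraries was wider. Hist1h4i, the leading H4 gene, ran from 10.8 (LYT016) to 66.2 (LYT005) normalised counts, Hist1h4h from 1.88 (LYT015) to 34.4 (LYT008) and Hist4h4, an H4 gene that lies alone on chromosome 6, from 1.15 (LYT006) to 17.4 (LYT013). Hist1h2be, an H2B gene, stood at 71.1 in LYT005 and 89.3 in LYT008 and at 8.06 to 31.1 in the other 7 libraries. Hist1h1e and Hist1h1d, both linker histone genes, were highest in LYT005 at 33.1 and 18.4. Hist1h2be and Hist1h1e overlap on the minus strand of chromosome 13 and share 24.5% of the 31-base words of Hist1h1e, so their counts are not separate. Hist1h2bg, another H2B gene, was above 0 in 8 libraries and reached 42.1 in LYT008, Hist2h3c2 ran from 12.7 to 40.8 and Hist1h3d from 1.15 to 30.7.

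Because transcripts differ in length, levels of different genes were compared per kilobase of the longest coding transcript. On that scale Hist1h2bc led with 809 normalised counts per kb, followed by Hist1h1c with 535, Hist2h2aa2 with 358, Hist3h2a with 153, Hist2h2aa1 with 83.7 and Hist2h3c1 with 64.6. The places of Hist2h2aa2, Hist2h2aa1 and Hist2h3c1 in this order are uncertain, since none has a 31-base word of its own. The median level was 1.74 per kb for the 26 members without a stem-loop in the annotated transcript. It was 3.48 for the 22 annotated 100 or more bases past it and 3.23 for the 21 annotated for fewer. Those 22 held 52.2% of all members' normalised counts and included 8 of the 13 members that averaged 10 or more. The 26 without a stem-loop held 37.7%, nearly all of it Hist1h2bc, and included 2 of the 13. The 21 with a short annotated end held 10.1% and included 3, of which Hist2h2aa1 and Hist2h2aa2 are the pair that cannot be told apart. Most members of each of these sets lay at low levels, as the plot of level against annotated end shows.

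**Figure D2:**
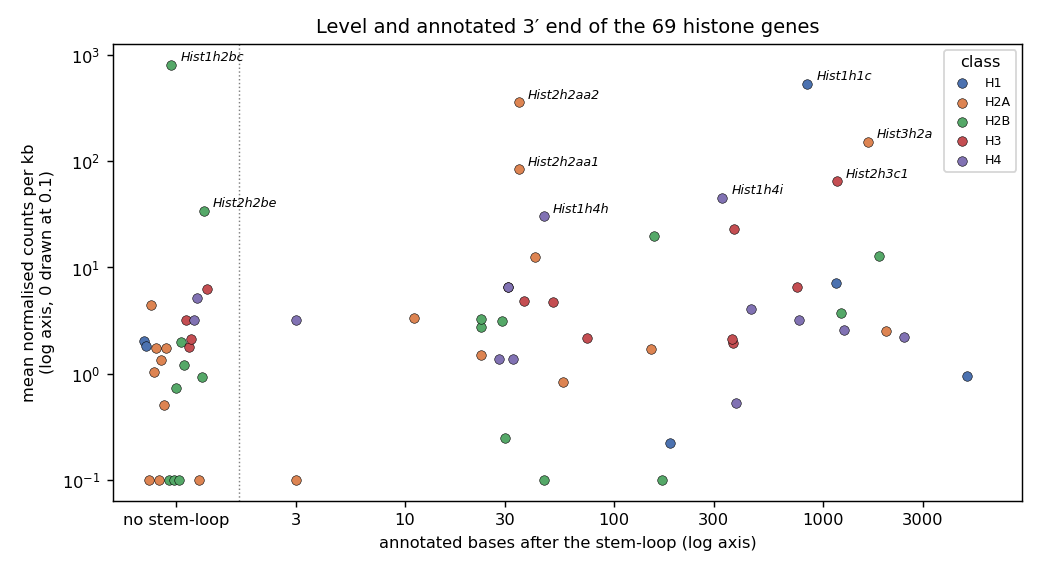
Mean normalised counts per kb over 9 libraries (log axis) against the number of annotated bases after the stem-loop (log axis), 1 point per gene, coloured by histone class. Members without an annotated stem-loop are drawn left of the dotted line with no order among them, and Hist1h2bc stands far above the others there.

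Many H2A and H2B genes lie head to head and share the short stretch between their starts. Of the members, 13 pairs started within 500 bases of each other on opposite strands. In 2 of them the neighbours stood far apart: Hist1h2bc was at 809 normalised counts per kb and Hist1h2ac, which starts 251 bases away, at 2.54, and Hist2h2be was at 34.3 per kb and Hist2h2ac, 239 bases away, at 0.83. Hist2h2ac had 4 counts in all 9 libraries together, so its level is imprecise. Of the other 11 pairs, Hist1h2ae and Hist1h2bg stood at 1.72 and 19.9 per kb, and Hist1h2bf and Hist1h2ad at 3.17 and 12.5. The other 9 pairs held no member above 6.48 per kb.

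The sequences between the starts of the 2 pairs with the widest gap are printed because each is shared by a gene with many counts and one with few. They come from the RefSeq promoter table (GRCm38.p6) and are written 5′ to 3′ on the plus strand, with Hist1h2ac or Hist2h2ac to the left and Hist1h2bc or Hist2h2be to the right. Capitals mark 3 motifs known from histone promoters, the TATA box (searched as TATAAA), the CCAAT box (CCAAT) and the octamer (ATTTGCAT), on either strand. The first lies at chr13:23683949-23684198 and the second at chr3:96220881-96221118.
Hist1h2ac and Hist1h2bc: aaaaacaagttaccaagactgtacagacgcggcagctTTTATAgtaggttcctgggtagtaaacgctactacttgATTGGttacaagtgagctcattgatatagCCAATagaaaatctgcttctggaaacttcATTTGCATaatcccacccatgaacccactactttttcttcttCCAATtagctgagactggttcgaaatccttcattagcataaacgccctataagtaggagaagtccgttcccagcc
Hist2h2ac and Hist2h2be: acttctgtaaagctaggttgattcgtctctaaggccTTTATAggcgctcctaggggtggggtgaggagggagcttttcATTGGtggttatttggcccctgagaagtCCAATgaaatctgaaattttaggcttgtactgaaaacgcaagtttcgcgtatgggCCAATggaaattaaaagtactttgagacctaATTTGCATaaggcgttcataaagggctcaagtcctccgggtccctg

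Each stretch held 1 octamer and 2 CCAAT boxes on the plus strand and 1 TATA box and 1 CCAAT box on the minus strand. Over the 62 promoter windows of 61 members in the table, taken from 250 bases before to 50 bases after the start and searched on both strands, CCAAT was present in 85.5%, against 37.4% of all 32851 windows. TATAAA was present in 56.5% against 13.6%, and ATTTGCAT in 22.6% against 1.74%. The octamer occurred in 7 of 17 H2A and 7 of 17 H2B windows and in no H1, H3 or H4 window. CCAAT occurred in all 6 H1, 17 H2A, 17 H2B and 10 H3 windows and 3 of the 12 H4 ones. Neighbours share these windows in part, and a match is a description of the letters, not of a bound site.

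**Figure D3:**
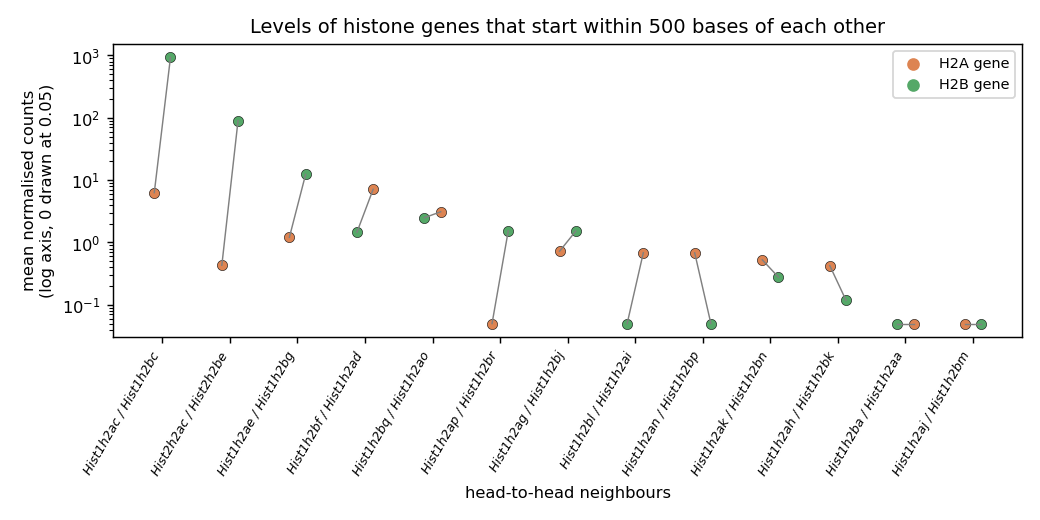
Mean normalised counts over 9 libraries (log axis) of the 13 pairs of histone genes that start within 500 bases of each other, H2A in orange and H2B in green. Hist1h2bc and Hist2h2be stand far above their neighbours Hist1h2ac and Hist2h2ac.

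Mki67 encodes a nuclear protein of cycling cells and was used as the gauge of cycling. It stood at 4991, 6434, 1351, 219 and 121 normalised counts in LYT004, LYT005, LYT014, LYT015 and LYT017, and at 160, 3643, 68.2 and 122 in LYT006, LYT008, LYT013 and LYT016. It therefore ran over 94.3 times, with LYT005, LYT004 and LYT008 highest, LYT014 between and the other 5 low, and both groups held high and low libraries. The other 15 genes of the cycling list, among them Top2a, Ccnb1 and Cdk1, were also highest in LYT005, LYT004 and LYT008. In bulk RNA fewer cycling cells and less RNA per cell cannot be told apart.

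The summed histone members followed this order only in part. They stood at 2355, 3681, 2426, 2259 and 1966 normalised counts in LYT004, LYT005, LYT014, LYT015 and LYT017, and at 2116, 4397, 3407 and 2369 in LYT006, LYT008, LYT013 and LYT016. LYT004, second in Mki67, was near the middle, and LYT013, with the lowest Mki67, had the highest sum after LYT008 and LYT005. Without the 8 members with the highest mean the picture differed. The other 61 members summed to 453 in LYT008 (exact 95% Poisson interval 407 to 503), 432 in LYT005 (388 to 479) and 187 in LYT004 (161 to 217). In LYT013 they summed to 138 (121 to 157), in LYT016 to 132 (112 to 154) and in LYT014 to 130 (111 to 152). In LYT006, LYT017 and LYT015 they summed to 114 (92.8 to 139), 101 (79.2 to 126) and 98.9 (80.9 to 120). So LYT008, LYT005 and LYT004 were the highest 3 for the less abundant members, as for Mki67, but the interval of LYT004 lay below those of LYT005 and LYT008, while its Mki67 was 4991 against 6434 and 3643. These intervals cover counting error in each library. No correlation with Mki67 is given because the libraries fall into separate levels of Mki67.

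**Figure D4:**
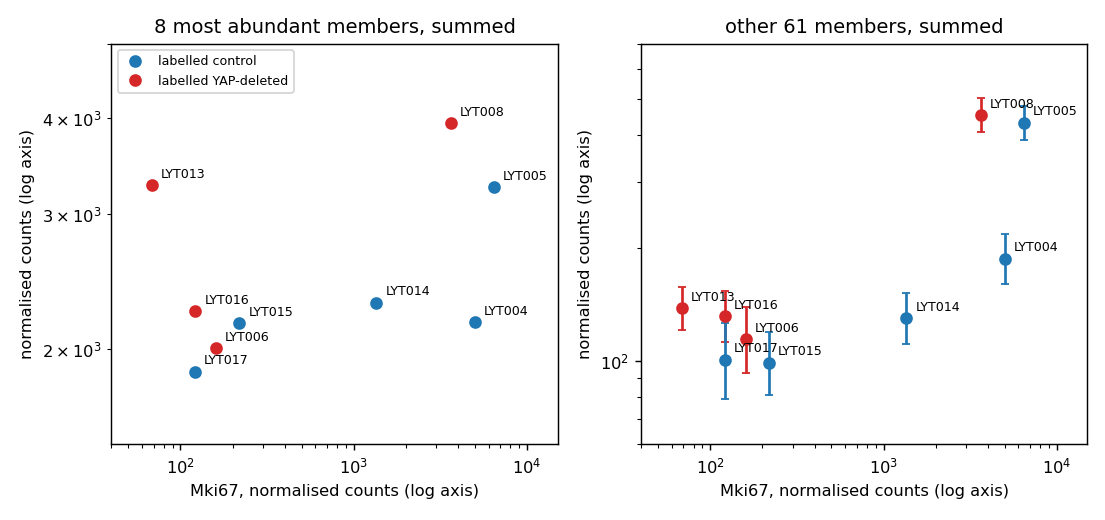
Summed normalised counts of the 8 histone genes with the highest mean (left) and of the other 61 (right) against Mki67, each on log axes, 1 point per library with blue for control and red for YAP-deleted labels. Bars on the right are exact 95% Poisson intervals; LYT013 has the lowest Mki67 and a high sum on the left, and LYT008, LYT005 and LYT004 lead on the right.

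The number of members above 0 showed the same libraries in front, at 50 in LYT008, 48 in LYT005 and 45 in LYT004, against 27 to 39 in the other 6. The deepest library, LYT013, had 31. Over all genes, 16282 were above 0 in LYT008, 16616 in LYT005 and 17036 in LYT004, against 16462 to 17341 in the other 6. Among the 42 members above 0 in at least 4 libraries, LYT005 was highest for 14, LYT008 for 12, LYT004 and LYT017 for 5 each, LYT013 for 4 and LYT006 for 2. Passing this filter depends on the same counts: Hist1h3b, Hist1h2ab and Hist1h2br passed it only through LYT004, LYT005, LYT008 and LYT014. The tally of highest libraries was not made over all genes, so no lean is read from it. Hist1h2ac is an example of a member high in LYT005 and LYT008, with 22.1 and 24.2 normalised counts there and 0.60 to 3.34 in the other 7 libraries. Hist1h3d stood at 30.7 in LYT005, 23.0 in LYT008 and 5.33 in LYT004, against 1.15 to 4.71 elsewhere. Hist1h3b, an H3 gene, stood at 12.8 in LYT004, 8.93 in LYT008 and 3.68 in LYT005 and at 0.80 in LYT014, and at 0 in the other 5 libraries.

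Hist2h2aa2 and Hist3h2a differed from these genes in that LYT013 was highest. A list of 11 replication-independent histone genes, whose mRNAs mostly carry poly(A) tails, was set beside the members. H2afx, which encodes the H2A variant phosphorylated at DNA breaks, ran from 96.8 (LYT016) to 1054 (LYT005) normalised counts, and Cenpa, the centromeric H3, from 76.8 (LYT016) to 1188 (LYT005), with LYT005, LYT008 and LYT004 highest for both. H3f3a and H3f3b, the genes of replacement histone H3.3, ran over 1.61 and 1.51 times. H1f0, the linker histone of resting cells, ran over 1.61 times, from 1999 to 3221.

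Genes that process histone mRNA were present in every library. Slbp stood between 616 (LYT008) and 857 (LYT013) normalised counts, 1.39 times, Cpsf3, the cleaving nuclease, between 705 and 968, and Lsm11, a U7 subunit, between 102 and 152. Npat, which activates histone transcription at the start of S phase, ran from 193 (LYT013) to 598 (LYT004). Of 15 listed names of processing and transcription genes 14 were found, and the name not found, Ars2, is another name of Srrt, which was. The U7 RNA and other non-polyadenylated RNAs of a list of 30 had no row under the names searched and were not analysed here.

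The genes most like the members across libraries were sought among the 8599 genes at or above the median level. Nde1, which encodes a centrosomal protein, had the highest Pearson r to the mean of the 42 members over the 9 libraries at 0.97, followed by Lmf2 at 0.97, Cep89 at 0.96, Ppp2r5d at 0.95 and Arl6ip1 at 0.94. Nde1 stood at 1577 in LYT005, 1530 in LYT008 and 1253 in LYT004 and at 907 to 1069 in the other 6 libraries. These r values are a description of 9 libraries and not a test. The mean of the 42 members was 6.14 in LYT005, 6.18 in LYT008 and 5.91 in LYT004, the libraries with the highest Mki67. It was 5.72 to 5.85 in the other 6, so the r values rest largely on this split between libraries.

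The group comparison was made with limma on the 17203 genes that exceeded the lowest deposited value in 4 or more of the 9 libraries, with Benjamini-Hochberg adjustment over all of them. The 42 histone members in this set are those that had enough counts, not the whole family. Over the 9 libraries none of the 42 passed an adjusted p of 0.05, and neither did any other gene (0%). At an unadjusted p under 0.05 stood 3 of the 42, 1 higher and 2 lower in the YAP-deleted group, against 7.22% of all genes tested. With limma voom, run on the recovered counts, none passed the adjusted threshold either. The differences were positive for 22 members and negative for 20, with a median of 0.02 against -0.0045 over all genes tested, and ran from -0.38 to 0.53. The 2 groups overlapped for every one of the 42, against 2.84% of all genes whose groups did not overlap.

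Hist2h2aa2 had the smallest p, with a difference of 0.53 ± 0.19 (SE), an unadjusted limma p of 0.0181 and an adjusted p of 0.649. It stood at 147 ± 34.4 (SD, n = 5) normalised counts in the control group and 240.5 ± 76.4 (SD, n = 4) in the YAP-deleted group. This value cannot be separated from that of its copy Hist2h2aa1. The sum of both stood at 198 ± 38.0 (SD, n = 5) and 288 ± 97.6 (SD, n = 4), a difference of 0.51 in log2 normalised counts that was not tested. Hist2h4, an H4 gene with 35 counts in all libraries together, differed by -0.38 ± 0.14 (SE; adjusted limma p of 0.649), from 6.02 ± 1.98 to 2.01 ± 3.02 normalised counts. Hist1h2bf, an H2B gene with 12 counts in all, differed by -0.24 ± 0.10 (SE; adjusted limma p of 0.649). Levels this low lie near the limit that a count of 0 allows. On the log2 scale of limma voom the differences of Hist2h2aa2, Hist2h4 and Hist1h2bf were 0.72, -2.42 and -1.69, in the same directions, since the deposited scale compresses low values.

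The most abundant members did not differ beyond the spread between libraries. Hist1h2bc stood at 817.5 ± 275 (SD, n = 5) normalised counts in the control and 1082 ± 390 (SD, n = 4) in the YAP-deleted group, a difference of 0.36 with a 95% interval of -0.18 to 0.90 and an exact two-sided permutation p of 0.206. Without LYT008 the Hist1h2bc difference was 0.17, and without LYT005 it was 0.53. Hist1h1c stood at 791 ± 249 and 889 ± 414, a difference of 0.11 with an interval of -0.54 to 0.76 and an exact permutation p of 0.762. The interval for Hist3h2a was -0.07 to 0.51 and that for Hist1h4h -0.10 to 0.75. These intervals are wide enough to hold changes in either direction, and the missed threshold does not show that the groups are alike. The share of counts taken by all members was 0.0137% ± 0.0036 (SD, n = 5) and 0.0163% ± 0.0057 (SD, n = 4).

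**Figure D5:**
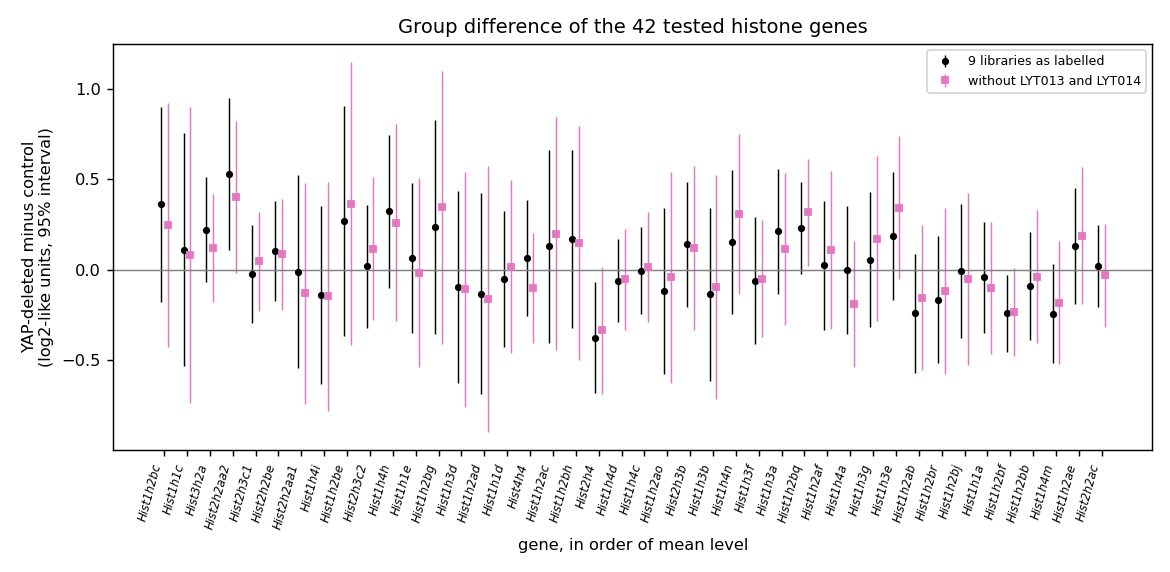
Difference YAP-deleted minus control, on the log2-like scale of the deposited values, with its 95% limma interval for the 42 tested histone genes in order of mean level. Black circles are the 9 libraries as labelled and pink squares the 7 libraries without LYT013 and LYT014; the differences scatter around 0 with a median of 0.02 over 9 libraries.

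Without LYT013 and LYT014, 12 of 17203 genes passed the adjusted limma threshold (0.0698%), and none of the 42 histone members did. The 12 include Yap1, whose own level decided which libraries were left out, so its call is no result. Hist1h2bq, an H2B gene with 22 counts in all, was the only member at an unadjusted p under 0.05, against 6.29% of all genes, with a difference of 0.32 ± 0.13 (SE) and an adjusted limma p of 0.764. Hist1h2bq and Hist1h2bf were the 2 of 42 members whose groups did not overlap, against 7.32% of all genes. The reads of Hist1h2bq cannot be told apart from those of Hist1h2br, and their sum over these 7 libraries stood at 3.20 in LYT004, 9.81 in LYT005, 0 in LYT015 and 1.34 in LYT017, and at 2.31 in LYT006, 10.2 in LYT008 and 5.01 in LYT016. The groups overlapped for this sum. Hist2h2aa2 then differed by 0.40 ± 0.19 (SE), Hist1h2bc by 0.25 and Hist1h1c by 0.08.

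Since Mki67 varied within both groups, the fit was repeated with the mean of the 16 cycling genes of each library as a covariate. Mki67 itself differed by -1.69 ± 1.24 (SE) over 9 libraries, with an exact permutation p of 0.302, and from -2.81 (without LYT008) to -1.08 (without LYT005) when 1 library was left out. Without LYT013 and LYT014 it differed by -1.10, with an exact permutation p of 0.571. All 16 cycling genes had negative differences, with a median of -1.06 over 9 libraries and -0.64 over 7, none past the adjusted limma threshold. With the covariate none of the 42 members passed the adjusted limma threshold, nor did any other gene (0%). At an unadjusted p under 0.05, 9 members were higher and 1 was lower in the YAP-deleted group. Of all 17203 genes 629 (3.66%) were higher and 681 lower. The 9 were Hist1h2bg, Hist1h4n, Hist1h2bc, Hist1h2be, Hist1h2bq, Hist2h2aa2, Hist1h2bh, Hist1h3a and Hist1h4h, with adjusted limma p of 0.651 each. Reads of Hist2h2aa2 and Hist1h2bq cannot be told apart from those of Hist2h2aa1 and Hist1h2br, which differed by -0.14 and -0.03. The differences were then positive for 32 of 42 members, with a median of 0.09, against 49.6% and -0.0019 over all genes tested. Without LYT013 and LYT014, differences with this covariate were positive for 27 of 42 members, with a median of 0.09. Over all genes tested these were 48.6% and -0.0056. At an unadjusted limma p under 0.05 stood 6 members higher and 0 lower, against 998 and 1014 of 17203 genes. Hist1h2bh, Hist1h3a and Hist1h4h were not among the 6, and no member passed the adjusted threshold. Of the 3 libraries with the highest Mki67, 2 were labelled control (LYT004 and LYT005) and 1 YAP-deleted (LYT008). At high Mki67 either fit therefore sets a single YAP-deleted library against 2 controls.

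The library codes fall into 2 ranges, 4 to 8 and 13 to 17, and each range holds both groups. Codes are names in the labels and nothing says that they mark a batch. A test of whether the group difference changed between the ranges called none of the 42 members and none of the 17203 genes at an adjusted limma p under 0.05, and 2 members and 436 genes stood at an unadjusted p under 0.05. This test used all 9 libraries as labelled, and LYT013 and LYT014 both lie in the range 13 to 17. In the 9 libraries none of the 24 DNA synthesis genes, 14 processing genes, 12 histone chaperones or 11 replication-independent histone genes passed the adjusted limma threshold. The medians of their differences were -0.35, -0.05, -0.13 and 0.08, against -0.0045 over all genes tested.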

How the data were processed

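The submitters' processing notes name kallisto 0.44.0 (a transcript quantifier), sleuth and bcl2fastq 2.20. Their order, the transcript set and the step behind the deposited values are not given in the sources used here. As for units, the authors' deposited table gives each gene name 1 value per library on a variance-stabilised, log2-like scale whose lowest value is 4.96. Each value could be turned back into a count over a library's size factor (an inverse hyperbolic sine was undone), and 100% of the resulting counts were whole to within 0.1 in every library. Differences on this scale understate the change of genes with few counts.

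Columns were matched to samples by library code; the column for LYT013 was headed LYT013.1. Positions, lengths and stem-loops came from GENCODE release M21 (GRCm38), and promoters from RefSeq (GRCm38.p6), where Hist1h2bc and Hist2h2be were not matched. Groups were compared in limma 3.58.1 under R 4.3.3, using empirical Bayes moderation and a mean-variance trend, two-sided, with Benjamini-Hochberg adjustment at 0.05. Yap1, Mki67, Hist1h1c and Hist1h2bc also had exact permutation tests. The fit without LYT013 and LYT014 kept the gene filter of the 9 libraries. The deposited unit is a transformed value, so limma on that scale was used, with limma voom on the recovered counts beside it; other count models were not run. The procedure was tested on simulated data with changes placed only in genes at or above the median level. No simulated library went against its label, so that test does not cover such libraries or members with few counts.

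The members and lists were chosen with earlier results of these data known. Members were named if they were among the 3 with the highest mean of their class, had one of the 5 smallest p in either direction, or belonged to a fixed set with known polyadenylated or germ line forms; members named beyond this were chosen after their values were seen, as examples. Alternatives covered libraries, filters, scaling, transformation, moderation, weights and covariates. Replicates of a group were not duplicates of each other: the smallest chi-square per degree of freedom was 13.8.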

Additional observations from a re-analysis of the deposited data

Results flagged for a closer look

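In groups of 4 or 5 libraries, a library was singled out where its gap to the nearest other library was a larger part of the group's whole range than Dixon's 95% critical value. Of 44 such groups examined, over 22 measures, 9 held such a library. Chance alone gives about 1 in 20 for a single group. The 44 are not independent, since they are the same 9 libraries and the measures overlap, so no excess over chance is read from the 9. Values here are on the deposited log2-like scale unless stated.

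Control LYT005 lay above the other 4 control libraries for 4 members. For Hist1h2ac, an H2A gene, it stood at 6.14 against 5.19 to 5.26, a gap of 0.9287 of the range. For Hist1h2bc it stood at 10.42 against 9.45 to 9.61 (0.8323 of the range), for Hist1h3d at 6.34 against 5.28 to 5.55 (0.7474) and for Hist1h2be at 6.97 against 5.68 to 6.03 (0.7334).

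Among the libraries labelled YAP-deleted, LYT008 stood alone for Hist1h3d at 6.16 against 5.23 to 5.36 (0.8592 of the range). It also stood alone for the summed 61 less abundant members, at 8.82 against 6.83 to 7.11 on the log2 scale of normalised counts (0.8613), and for Mki67 at 11.86 against 6.94 to 7.77 (0.8309). Hist3h2a and Hist2h2aa2 were highest in LYT013, which had the lowest Mki67. The part of cycling cells in these values was not tested.

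Yap1 in the library labelled control LYT014 was 9.41 against 11.53 to 11.86 in the other controls (0.8671 of the range). In the library labelled YAP-deleted LYT013 it was 11.34 against 9.46 to 9.47 (0.9938).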

How the results depend on the processing

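No member passed the adjusted limma threshold under any of the 24 alternatives for the 9 libraries. Nor did any under the 22 for the 7 libraries without LYT013 and LYT014, leaving aside codes 13 to 17. That fit held a single YAP-deleted library, LYT016, so only the median difference of its 35 tested members, 0.11, is given. The median difference moved by less than the spread between libraries. It was -0.04 to 0.06 and -0.09 to 0.11 when each library was left out in turn, and over 9 libraries ran from -0.09 (codes 4 to 8) to 0.13 (Mki67 covariate). At an unadjusted p under 0.05 stood 3 of 42 members over 9 libraries, against 7.22% of all genes tested. The number became 1 within library codes 4 to 8, with the 18 members above 0 in all libraries, and without LYT013 and LYT014. All genes at that threshold were then 797 higher and 870 lower of 17116, 562 and 532 of 13828, and 6.29%. It became 10 with the cycling covariate (all genes 629 higher and 681 lower of 17203) and 9 with Mki67 as covariate (624 and 626). It was 1 to 4 without each replicate in turn, with 1 without LYT006 (500 and 656) or without LYT013 (575 and 549). Over 7 libraries it was 1, against 6.29% of all genes. It became 3 with the macrophage covariate (all genes 963 higher and 946 lower of 17203) and with limma voom (569 and 511). It became 2 without a filter (604 and 562 of 20539, with 60 members tested) and without a trend (519 and 547). With a pseudocount of 1 (561 and 528) or 0.5 (557 and 531) it was also 2. It became 4 with array weights (836 and 758), 6 with the cycling covariate (998 and 1014) and 6 with the Mki67 covariate (996 and 993). It became 0 with the 19 members above 0 in all 7 libraries (all genes 526 higher and 445 lower of 13976). It was 0 to 2 without each replicate in turn, with 0 without LYT017 (513 and 513) and 2 without LYT004 (486 and 463), LYT006 (266 and 327) or LYT008 (436 and 465). Of the 10 members with the 5 smallest p in each direction, only Hist1h2br changed sign, to 0.0084 with Mki67 as covariate.

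A filter on 4 of the 7 libraries, used first and then replaced by the filter of the 9 libraries after its result was seen, tested 16372 genes and 35 members and called 11 genes and none of the members. Limma voom used the size factors of the deposited values, a choice made after seeing the data, and TMM scaling and count models were not run. Mki67 could not be fitted with itself or its list as covariate. No paired analysis was possible because the library codes of the groups share no number. Of the members, 56 averaged under 10 normalised counts, and their values carry a large counting error.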
